A study of Mus musculus with 2 samples.

Results

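The genes described here encode the proteins of both ribosomes of a mouse cell, the cytosolic one and the mitochondrial one. They were taken from the gene names alone: names that begin with Rpl, Rps or Rplp and a number made the cytosolic set, and names that begin with Mrpl or Mrps and a number made the mitochondrial set. Rows named as pseudogenes (272) and ribosomal protein kinases (10) were dropped from the 451 rows that matched. This left 169 genes of the 49492 in the table, 91 of them cytosolic and 78 mitochondrial. The rule uses no measured value, but the sets were picked with earlier results of these data known.

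The cytosolic ribosome translates the mRNAs made in the nucleus, and its small and large subunits are put together in the nucleolus from ribosomal RNA and these proteins. Messages of the cytosolic proteins start with a run of pyrimidines, the terminal oligopyrimidine (TOP) motif, through which mTOR signalling and the RNA-binding protein Larp1 control their translation. The mitochondrial ribosome translates the few proteins encoded in mitochondrial DNA, nearly all of them parts of the respiratory chain. All its proteins are encoded in the nucleus and imported. Some have a bacterial counterpart and others are found in mitochondria only.

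The cells were wild-type mammary basal cells, the outer epithelial layer that includes myoepithelial cells and, by transplantation assays, mammary stem cells. They were isolated by flow cytometry from mammary glands of adult female mice and grown as colonies in a three-dimensional gel for 10 days, either without TNF-α or with 10 ng/mL recombinant mouse TNF-α, an inflammatory cytokine. Each condition had 1 RNA-seq library, so no difference here has a replicate check, no p-value is given, and effects of the cytokine cannot be told apart from other differences between the 2 cultures. How many animals went into each culture was not given in the sources used here.

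The control library held 44462275 counts and the TNF-α library 53487087, and 20771 genes had at least 10 counts over both libraries and were compared. Differences are log2 ratios of TNF-α to control after scaling by the trimmed mean of M-values (TMM), with a 95% interval from the exact binomial distribution of the 2 counts. The intervals cover counting error only. No molecular identifiers are described for the libraries, so reads of the same molecule may be counted more than once. In the control library 2172 genes had a count of 2 while 618 had a count of 1. Whether both reads of a fragment were counted was not tested. Where molecules were counted repeatedly, the intervals are too narrow. Bounds close to no difference, and the numbers of genes whose interval excludes no difference, are therefore uncertain. Transcripts of the basal keratin Krt14 stood at 5168 CPM (counts scaled to a library of 1000000) in the control and 4860 in the TNF-α library, and the 10 basal markers summed to 13072 and 11931 CPM. The 12 luminal markers, led by Krt8, summed to 4600 and 3651 CPM, with a median log2 ratio of -0.80. Sums were 500 and 485 CPM for 6 fibroblast markers, 16.9 and 16.5 for 9 leukocyte markers, 6.59 and 6.23 for 3 endothelial markers, and 16.2 and 13.2 for 4 erythroid markers. Cd3e, the T cell marker, had no count in either library. The part of these marker shifts in the values below was not tested, and in bulk RNA fewer cells of a type and less RNA per cell cannot be told apart.

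Most cytosolic ribosomal protein genes sat slightly above the control level in the TNF-α library. Of the 89 that passed the count filter, 73 (82.0%) had a log2 ratio above 0, against 50.6% of all genes compared. The interval lay wholly above 0 for 66 members and wholly below 0 for 5. Over all 20771 genes compared it did so for 5994 and 5777. Among 9345 genes with at least 1000 counts, as 80 cytosolic members had, the numbers were 3508 and 3468. The shift was small: the median log2 ratio was 0.14 (interquartile range 0.05 to 0.29), beside 0.004 for all genes (-0.29 to 0.31). More than 25% higher (over 0.32 on the log2 scale) were 20 members (22.5%), no larger a share than the 24.5% of all genes, and more than 20% lower (the same fold) was 1 member, against 23.4% of all genes. Only Rps3a3 and Rpl37rt were over 2-fold higher and no member was over 2-fold lower, where 8.56% and 6.62% of all genes were. The ratios of the set were thus mostly above 0 but small.

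Low counts widen ratios, and most members are abundant, so the same counts were taken over genes with at least 200 counts. There 19 of 87 cytosolic members were more than 25% higher and 0 lower, while 18.0% of the 13609 genes were higher and 17.2% lower. In this class 6804 of all genes had a log2 ratio above 0.

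**Figure D1:**
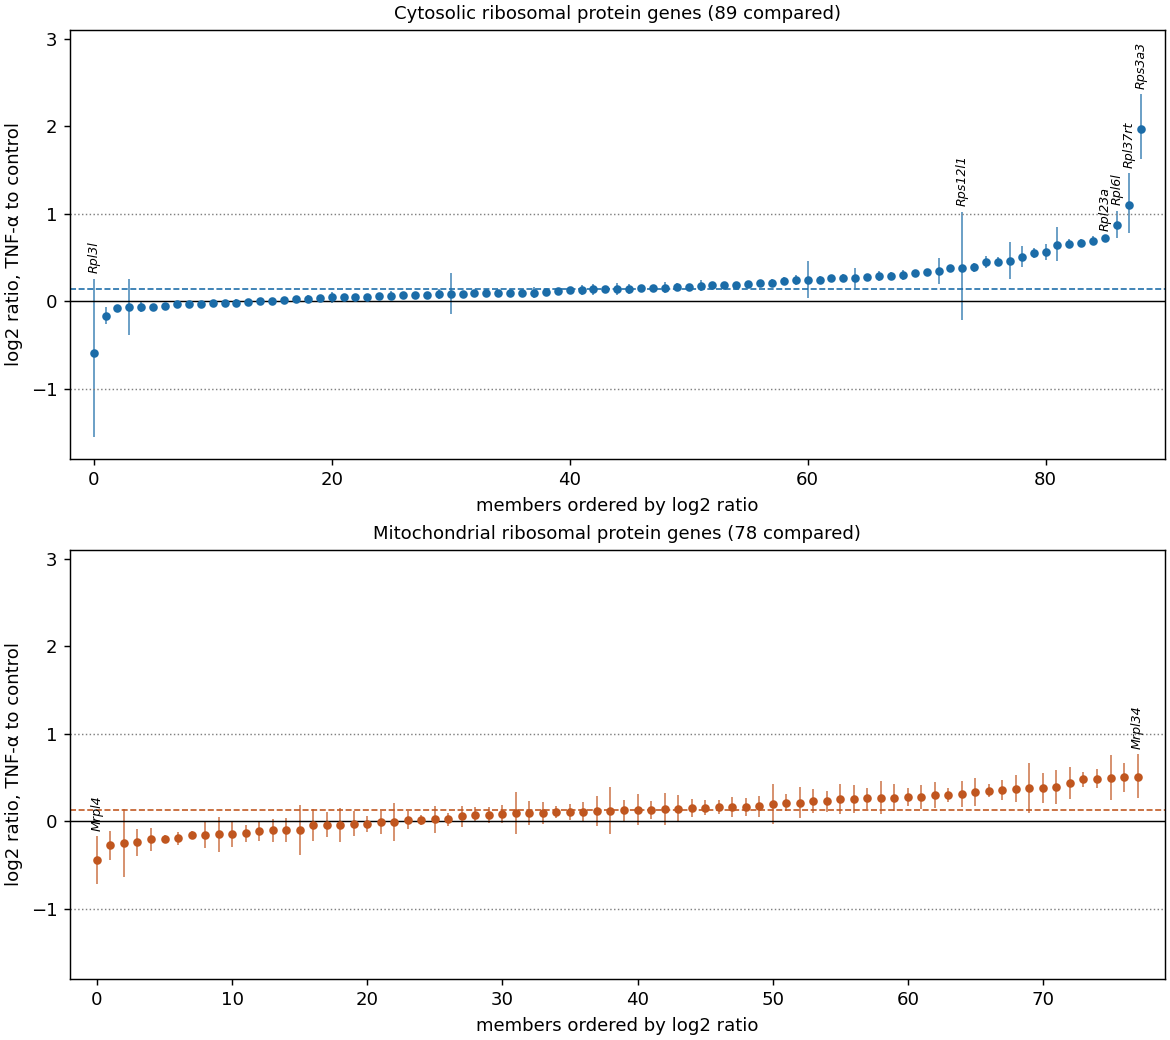
Log2 ratio of the TNF-α to the control library for each compared member, ordered from lowest to highest, with 89 cytosolic genes above and 78 mitochondrial genes below. Vertical bars are 95% counting intervals, the dashed line is the set's median (0.14 and 0.12) and dotted lines mark 2-fold; nearly all points lie inside the dotted lines and most lie above 0.

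Together the cytosolic members took 1485398 counts in the control and 1941618 in the TNF-α library, or 3.34% and 3.63% of each library. The log2 ratio of these sums was 0.13 (0.124 to 0.130). A single gene carried part of that: without Rpl23a the ratio of the sums was 0.10.

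The 76 standard cytosolic proteins, those of the ribosome itself without paralogues and copies, showed the same picture, with a median of 0.14. Above 0 were 64 (84.2%, against 50.6% of all genes). More than 25% higher were 14 (18.4%), below the 24.5% of all genes and near the 18.0% of genes with at least 200 counts. In the small subunit, 29 of 30 genes (96.7%) were above 0 and the median was 0.18. The exception was Rps26, which lines the mRNA exit channel, at -0.06. In the large subunit, 35 of 46 genes (76.1%) were above 0 and the median was 0.10. The summed counts of the small subunit were 380639 in the control and 511041 in the TNF-α library, a log2 ratio of 0.17. Those of the large subunit were 1085962 and 1405856, a log2 ratio of 0.11.

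Rpl23a was the standard member with the highest ratio. This protein sits at the exit of the peptide tunnel of the large subunit, where the signal recognition particle docks. Its gene (chromosome 11, 78180932 to 78183584, GRCm38) had 45336 counts in the control and 89438 in the TNF-α library, a log2 ratio of 0.72 (0.70 to 0.74). Its exons overlap the annotated exons of Snord42b and Tlcd1, and how reads in shared exons were assigned is not given in the sources used here. Rpl41, which encodes the shortest protein of the ribosome, had 4268 and 8268 counts, a log2 ratio of 0.69 (0.64 to 0.75).

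The next ratios among standard members belonged to genes named here after their values had been seen. Rpl31, a protein beside the tunnel exit, had 5657 and 10765 counts (0.67), and its exons overlap Tbc1d8. Rpl37 had 4626 and 8732 counts (0.66), Rps29 had 338 and 635 (0.65), and Rpl38, a protein known from mouse mutants with changed Hox mRNA translation, had 1401 and 2481 (0.56). Rps25 had 4001 and 7021 counts (0.55), with exons that overlap Ccdc84 and Trappc4. Between 25% higher and these values lay Rpl37a (0.51), Rps12 (0.45), Rpl35a (0.45), Rps20 (0.39), Rps3 (0.38), Rps2 (0.34) and Rpl36a (0.32). Apart from Rpl23a, the members with the highest ratios were not those with the highest counts.

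The lowest ratio of the set was that of Rpl3l, a muscle paralogue with 26 and 20 counts, at -0.59. Among members with at least 200 counts the lowest values were closer to 0. Rps19bp1, whose name fits the rule but which encodes a protein that binds Rps19 and the deacetylase Sirt1, had 1780 and 1903 counts, a log2 ratio of -0.16 (-0.26 to -0.07). Rpl10, which joins the large subunit last during its maturation, had 11732 and 13323 counts (-0.08). Rps27rt, a copy of Rps27, had 154 and 176 counts (-0.07, interval -0.39 to 0.25). Rps26 had 5332 and 6104 counts (-0.06, interval -0.12 to -0.01). No standard member was lower than Rpl10.

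Parts of the ribosome with known separate roles held members on both sides of 0. In the P stalk, which recruits elongation factors, Rplp0 had 14882 and 18521 counts (0.06), Rplp1 had 13243 and 16898 (0.09), and Rplp2 had 17043 and 19557 (-0.06, interval -0.09 to -0.03). Rpl5 and Rpl11 carry the 5S ribosomal RNA and are known to bind the p53 regulator Mdm2 when ribosome assembly is disturbed. Rpl5, the most counted gene of this pair, had 118930 and 137086 counts (-0.05, interval -0.07 to -0.04), and Rpl11 had 12566 and 16728 (0.15). Rps6, the target of S6 kinase, had 36750 and 48166 counts (0.13). Rps19, whose human counterpart is mutated in Diamond-Blackfan anaemia, had 6432 and 9236 counts (0.26, interval 0.22 to 0.31).

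Most mitochondrial ribosomal protein genes were also slightly higher in the TNF-α library. All 78 passed the count filter, and 55 (70.5%) had a log2 ratio above 0, against 50.6% of all genes. The interval lay wholly above 0 for 38 and wholly below for 9, against 5994 and 5777 of the 20771 genes compared. Among 9345 genes with at least 1000 counts, as 62 mitochondrial members had, the numbers were 3508 and 3468. The median of the set was 0.12 (interquartile range -0.03 to 0.27). More than 25% higher were 13 (16.7%) and more than 20% lower was 1, where 24.5% and 23.4% of all genes were, and none passed 2-fold in either direction. Summed, the set had 92259 counts in the control and 116643 in the TNF-α library, 0.207% and 0.218% of each library and a log2 ratio of 0.08 (0.07 to 0.09).

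The single gene more than 20% lower was Mrpl4 (chromosome 9, 21002738 to 21008839), the counterpart of a bacterial protein that lines the peptide tunnel, with 240 counts in the control and 211 in the TNF-α library, a log2 ratio of -0.44 (-0.72 to -0.17). Above it came Mrpl43, a protein found in the mitochondrial large subunit only, with 581 and 574 counts (-0.28, interval -0.45 to -0.11). Mrpl36 had 111 and 112 counts (-0.24), and its interval of -0.64 to 0.15 takes in 0. Mrps6, a small subunit protein, had 674 and 682 counts (-0.24), and its exons overlap Slc5a3. Mrps31, found in the mitochondrial small subunit only, had 889 and 923 counts (-0.21, interval -0.34 to -0.07). In raw counts these genes were nearly equal between libraries, or lower for Mrpl4 and Mrpl43, while the TNF-α library was deeper.

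The 5 highest mitochondrial genes all had a bacterial counterpart, as did 46 of the 78 in the set, and their ratios were close together. Mrpl34 had 212 and 363 counts (0.51, interval 0.27 to 0.77). Mrpl11, at the base of the mitochondrial stalk, had 477 and 811 (0.50, interval 0.34 to 0.67). Mrps16 had 195 and 330 (0.50, interval 0.24 to 0.76), Mrpl13 had 1147 and 1926 (0.49, interval 0.38 to 0.59), and Mrpl15 had 1773 and 2967 (0.48, interval 0.40 to 0.57). These intervals overlap, so their order is not resolved. The other stalk genes were lower than Mrpl11: Mrpl10 had 208 and 271 counts (0.12, interval -0.14 to 0.39) and Mrpl12 had 1906 and 2539 (0.15, interval 0.07 to 0.24).

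Of the 46 mitochondrial members with a bacterial counterpart, 33 (71.7%) were above 0 and 10 (21.7%) more than 25% higher, with a median of 0.12. Of the 31 found in mitochondria only, 21 (67.7%) were above 0, with a median of 0.11. Of all genes 50.6% were above 0. In this group 2 (6.45%) were more than 25% higher, Mrpl37 at 0.36 and Mrpl38 at 0.35. Over all genes compared the share more than 25% higher was 24.5%, above that of both groups. The 13th gene past that bound, Mrps36 (0.38), is by current knowledge a part of the 2-oxoglutarate dehydrogenase complex and not of the ribosome, and was in neither group. These 3 genes are named after their values had been seen.

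The subunits of the mitochondrial ribosome gave different answers by median and by sum. In the large subunit the median of 51 genes was 0.14 and 38 were above 0 (74.5%, against 50.6% of all genes). Its counts summed to 50522 and 67785, a log2 ratio of 0.16. In the small subunit the median of 26 genes was 0.08 and 16 (61.5%) were above 0. Its counts, however, summed to 41565 and 48590, a log2 ratio of -0.03 (-0.05 to -0.02). The 3 most counted genes of the small subunit were below or near 0 after scaling: Mrps5 with 8289 and 8893 counts, Mrps25 with 7202 and 7491, and Mrps9 with 4558 and 5529. They weigh on the sum and not on the median.

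The sets were then set side by side. The median of the cytosolic set exceeded that of the mitochondrial set by 0.01 on the log2 scale. Cytosolic counts were 16.1 times the mitochondrial ones in the control and 16.6 times in the TNF-α library, a change of 0.05 on the log2 scale. Without the single gene Rpl23a that change was 0.02. With 1 library per condition and members that share both libraries, this difference has no test.

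Levels were compared between genes as TPM (transcripts scaled to a sum of 1000000 per library), computed from the counts and the summed exon length of each gene. The median of the standard cytosolic genes was 467 TPM in the control and 515 TPM in the TNF-α library. The median of the mitochondrial genes was 22.2 and 25.4 TPM. The cytosolic set made up 6.09% of all TPM in the control and 6.56% in the TNF-α library, and the mitochondrial set 0.252% and 0.263%. Of the 100 genes with the highest TPM, 18 were standard cytosolic members in the control and 19 in the TNF-α library.

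Most proteins of a ribosome are needed in equal number, but their messages were not equally abundant. The control level spanned a 134-fold range over the standard cytosolic genes and a 27.4-fold range over the mitochondrial ones. Rpl19 had 4145 TPM in the control and 4013 in the TNF-α library, Rpl23a had 3389 and 5409, and Rps23, a protein of the decoding centre, had 2364 and 2567. The gain of Rpl23a put it above Rpl19 in the TNF-α library. Lowest among standard members was Rps29, at 30.9 and 46.9 TPM, and lowest in the control with at least 200 counts in the whole cytosolic set were Rps3a3 (6.05 and 23.3), Rpl37rt (8.34 and 17.5) and Rpl22l1 (8.47 and 8.70). The summed exon length includes every annotated isoform (6270 bases for Rps15a, 1168 for Rpl41 with its 138-base coding sequence), so a gene with long rare isoforms gets too low a TPM.

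In the mitochondrial set the highest levels in the control were those of Mrps18c (102 TPM in the control and 104 in the TNF-α library), Mrpl52 (99.2 and 87.3) and Mrpl18 (92.0 and 93.9). The lowest in the control were Mrpl1 (3.73 and 3.85), Mrpl4 (5.81 and 4.13) and Mrps17 (6.29 and 6.19). The order of levels was nearly the same in both libraries, with a rank correlation of 0.994 over the 76 standard cytosolic and 0.980 over the 78 mitochondrial genes, points that share gene lengths and both libraries. The gap between the sets was much larger than any difference between libraries.

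**Figure D2:**
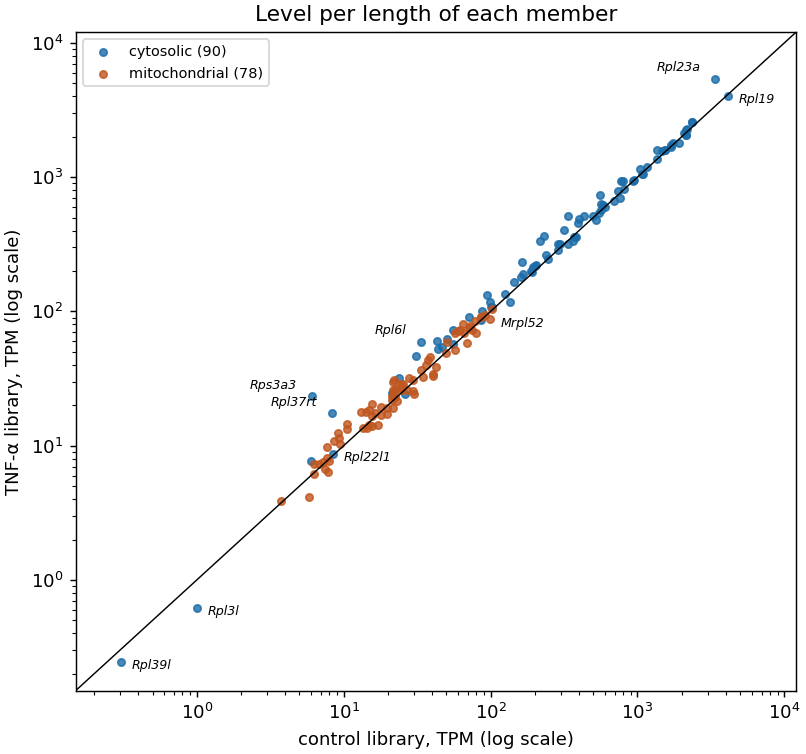
TPM in the TNF-α library against TPM in the control library for 90 cytosolic (blue) and 78 mitochondrial (orange) genes, both axes on a log scale, with the line of equality; Rpl10l had no count and is not drawn. Cytosolic genes lie mostly above the mitochondrial ones (medians 467 and 22.2 TPM in the control), and Rps3a3, Rpl37rt and Rpl6l lie farthest above the line.

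Among standard cytosolic genes the ratio was related to the length of the coding sequence. Over 76 genes Pearson's r between the log2 ratio and log2 coding length was -0.43 and Spearman's rho -0.33. These points share both libraries and the same scaling. The 25 genes with the shortest coding sequences (138 to 405 bases) had a median ratio of 0.28, and 10 of them were more than 25% higher. The 26 in the middle had a median of 0.13 and the 25 longest (582 to 1257 bases) a median of 0.09, each with 2 more than 25% higher. Short genes were not all high: Rpl39 (153 bases) was at 0.08 (4361 and 5515 counts), and Rps26 and Rplp2 (345 bases each) were at -0.06. The standard gene with the highest ratio, Rpl23a (0.72), had 468 bases.

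A weaker relation of the same sign was present outside both sets. Over 11646 genes that are no members, with at least 200 counts and a coding length, r was -0.095 and rho -0.13. Genes outside both sets with coding sequences of up to 405 bases (553 genes) had a median of 0.05, and 25.5% were more than 25% higher, against -0.01 and 16.4% for 11093 longer genes outside both sets. In the mitochondrial set there was no such relation (r -0.005, rho 0.02 over 78 genes). Summed exon length, which takes in the untranslated ends, showed little of it in the cytosolic set (r -0.11, rho -0.06). The ratio also ran against the level: with log2 control TPM, r was -0.39 and rho -0.41 over the 76 genes. The control count enters both quantities, so part of this negative relation is built in. Over 13444 genes outside both sets with at least 200 counts, r was -0.15 and rho -0.06. GC content gave r of -0.16 in the cytosolic and -0.22 in the mitochondrial set. Whether RNA fragment size or the library preparation differed between the libraries was not tested. After a smooth trend on coding length was removed, the cytosolic median was 0.08 and 11 cytosolic members were more than 25% higher. The mitochondrial median was then 0.07, against 0.12 before. Members without a coding length, among them Rps3a3, Rpl37rt and Rpl6l, are left out of these values.

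**Figure D3:**
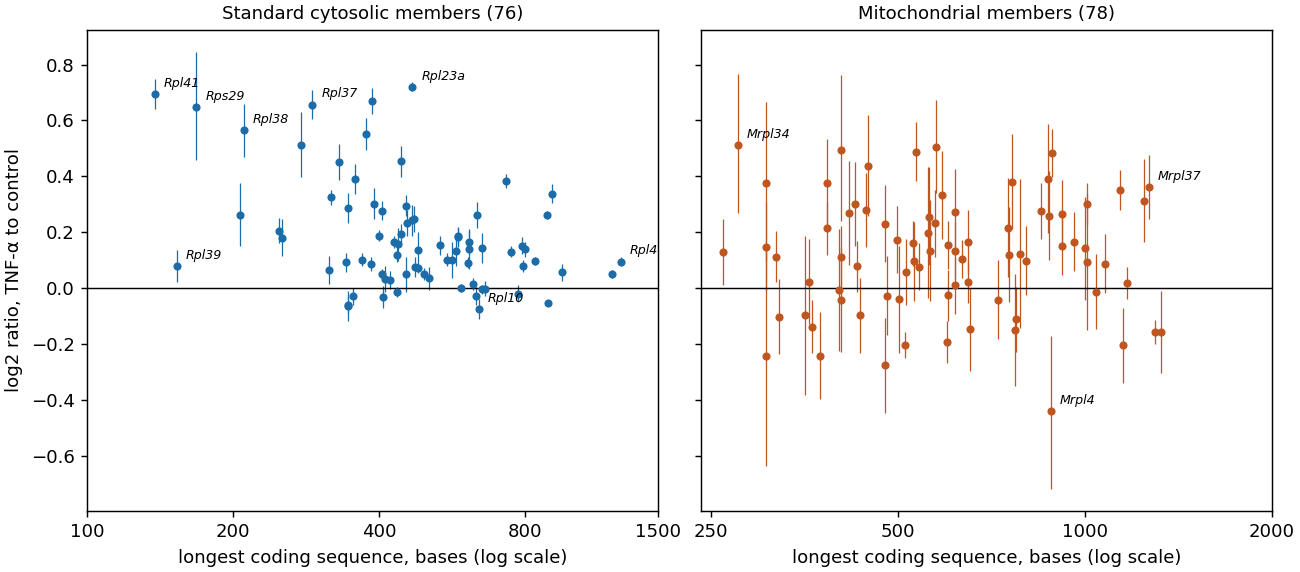
Log2 ratio of the TNF-α to the control library against the longest coding sequence in bases (log scale) for 76 standard cytosolic genes (left) and 78 mitochondrial genes (right), with 95% counting intervals. Short cytosolic genes such as Rpl41 (0.69) and Rps29 (0.65) lie high, but others such as Rpl39 (0.08) and Rps26 (-0.06) do not. The highest, Rpl23a (0.72), is of middle length, and no slope is seen on the right.

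Paralogues and near-identical copies behaved less uniformly than the standard genes. Of these 14 genes, 12 passed the filter, with a median of 0.29. Above 0 were 9 (75%, against 50.6% of all genes), and 6 were more than 25% higher (50%, against 24.5%). Low counts widen ratios, and Rpl3l (26 and 20 counts) and Rps12l1 (38 and 60) had few. Reads of a copy and its main form can be confused, so these values are uncertain, and 6 of the rows are classed as processed pseudogenes in the GENCODE M21 annotation although their names do not say so. Rps3a3 had 76 counts in the control and 362 in the TNF-α library (1.97, interval 1.63 to 2.37), while its main form Rps3a1 had 32010 and 40453 (0.08). Rpl37rt had 99 and 257 (1.10, interval 0.78 to 1.47) beside 0.66 for Rpl37. Rpl6l had 470 and 1034 (0.88, interval 0.72 to 1.04), while Rpl6 had 67579 and 97008 (0.26). All 3 are among those pseudogene-classed rows, and their shares of the counts of a pair ranged from 0.237% (Rps3a3, control) to 2.86% (Rpl37rt, TNF-α).

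The dropped rows that are named as pseudogenes showed higher ratios too. They held 25869 counts in the control and 36127 in the TNF-α library. Of the 122 that passed the filter 104 were above 0 (85.2%, against 50.6% of all genes), with a median of 0.65. With the cytosolic ones among these rows added to the cytosolic set, the log2 ratio of the sums was 0.13.

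The other pairs differed in how close a paralogue lay to its main form. Rpl22l1 had 266 and 338 counts and a log2 ratio of 0.09 (-0.15 to 0.32), equal to that of Rpl22 (23019 and 29241 counts, 0.09). Rpl7l1, a factor of large subunit assembly, had 6661 and 9197 counts (0.21, interval 0.16 to 0.25), beside 65459 and 83818 for Rpl7 (0.10, interval 0.08 to 0.11), and these intervals do not overlap. Rps27l, a known p53 target, had 647 and 985 counts (0.35, interval 0.20 to 0.49), beside 3198 and 4338 for Rps27 (0.18, interval 0.11 to 0.25). Rps4l had 320 and 454 counts (0.24), beside 14920 and 19831 for Rps4x (0.15), and is one of the pseudogene-classed rows.

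Rpl36al and Rpl36a were the pair whose intervals lay farthest apart among the protein-coding ones. Rpl36al had 7956 counts in the control and 9435 in the TNF-α library (-0.01, interval -0.06 to 0.03). Rpl36a had 20233 and 30328 (0.32, interval 0.30 to 0.35). The share of Rpl36al in the counts of the pair was 28.2% in the control and 23.7% in the TNF-α library. The tissue-restricted paralogues were nearly silent: Rpl3l, known from striated muscle, had 26 and 20 counts (-0.59, interval -1.56 to 0.26). Rpl39l had 4 counts in each library, and Rpl10l, known from the testis, had none, which allows up to 0.0675 CPM in the control and 0.0561 in the TNF-α library (3 counts each).

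**Figure D4:**
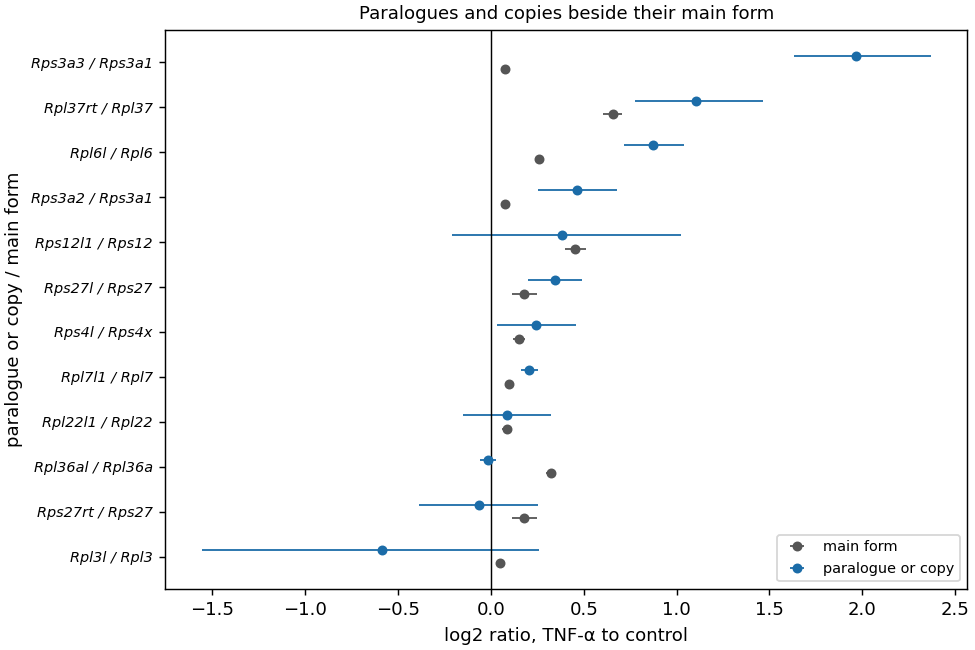
Log2 ratio of the TNF-α to the control library for 12 paralogues or copies (blue) and their main forms (grey), with 95% counting intervals. Rps3a3 (1.97), Rpl37rt (1.10) and Rpl6l (0.88) lie above their main forms, and Rpl36al (-0.01) lies below Rpl36a (0.32).

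Promoter sequence was compared between the sets, since it was not used to choose the members. RefSeq windows of 250 bases before to 50 bases after the annotated start were at hand for 133 members (64 cytosolic, 69 mitochondrial) in build GRCm38.p6. The pyrimidine run CTTTC, searched on the sense strand within 50 bases of the start, stood in 30 of 64 cytosolic promoters (46.9%) and in 9 of 69 mitochondrial ones (13.0%), against 12.8% of 32851 promoters and 10.3% of 12632 genes compared here. CCGGAAG, the core of ETS-family sites such as that of GABP, was searched over the whole window on both strands, and was in 35.9% of cytosolic and 36.2% of mitochondrial promoters, against 8.86% of all promoters and 15.7% of genes compared. The NRF1 core GCATGCGC was in 3.13% of cytosolic and 11.6% of mitochondrial promoters, against 2.71% of all and 4.73% of genes compared. The YY1 core AANATGGCG was in 10.9% and 15.9%, against 2.38% and 4.46%. Cytosolic members with CTTTC had a median log2 ratio of 0.10 and those without it 0.15. Members with CCGGAAG had medians of 0.18 (cytosolic) and 0.13 (mitochondrial), and those without it 0.12 and 0.12. The 9 mitochondrial members with CTTTC had a median of 0.02, the others 0.12. For the NRF1 core the medians were 0.21 with it (8 genes) and 0.11 without in the mitochondrial set, and 0.23 (2 genes) and 0.14 in the cytosolic set. For the YY1 core they were 0.23 (11 genes) and 0.11, and 0.18 (7 genes) and 0.14. These differences were not tested.

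The windows below run from 60 bases before to 10 bases from the RefSeq start for the 3 lowest and 3 highest members of each set that had a window. In the printed bases none of the motifs above was shared by all 3 genes at any end. The rest of the searched window is not printed, so a motif shared there is not excluded. Capitals mark a match to the motifs above, and in Mrpl36 the reverse complement of the YY1 core runs into CTTTC. The RefSeq start lies 281 bases from the end of the gene as deposited for Rplp2, 137 for Rpl41, 66 for Mrps6, 65 for Mrps16, 33 for Mrpl34 and 0 to 9 for the others. The cytosolic genes with the lowest ratios were Rpl10 (chrX:74270756-74270825, plus strand), Rps26 (chr10:128626497-128626566, minus) and Rplp2 (chr7:141447591-141447660, plus), and those with the highest were Rpl41 (chr10:128549159-128549228, minus), Rpl31 (chr1:39367791-39367860, plus) and Rpl37 (chr15:5116553-5116622, plus). The mitochondrial genes with the lowest ratios were Mrpl43 (chr19:45006433-45006502, minus), Mrpl36 (chr13:73330949-73331018, plus) and Mrps6 (chr16:92058276-92058345, plus), and those with the highest were Mrpl34 (chr8:71464866-71464935, plus), Mrpl11 (chr19:4962246-4962315, plus) and Mrps16 (chr14:20393481-20393550, minus).
Rpl10: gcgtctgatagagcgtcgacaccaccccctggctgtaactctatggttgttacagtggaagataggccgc
Rps26: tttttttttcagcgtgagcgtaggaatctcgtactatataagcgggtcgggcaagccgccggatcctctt
Rplp2: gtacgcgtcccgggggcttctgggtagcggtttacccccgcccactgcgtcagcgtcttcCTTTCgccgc
Rpl41: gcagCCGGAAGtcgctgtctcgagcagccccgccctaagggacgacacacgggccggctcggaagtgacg
Rpl31: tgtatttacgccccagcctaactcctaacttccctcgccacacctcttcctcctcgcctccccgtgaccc
Rpl37: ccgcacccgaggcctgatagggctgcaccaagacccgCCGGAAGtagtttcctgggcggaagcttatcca
Mrpl43: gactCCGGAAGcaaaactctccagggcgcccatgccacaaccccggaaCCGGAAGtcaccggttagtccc
Mrpl36: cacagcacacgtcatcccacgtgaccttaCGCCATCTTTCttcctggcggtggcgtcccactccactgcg
Mrps6: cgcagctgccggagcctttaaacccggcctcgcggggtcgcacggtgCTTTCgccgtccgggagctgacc
Mrpl34: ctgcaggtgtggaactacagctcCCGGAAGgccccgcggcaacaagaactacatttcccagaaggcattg
Mrpl11: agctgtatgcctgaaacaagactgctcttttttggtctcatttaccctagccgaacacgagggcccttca
Mrps16: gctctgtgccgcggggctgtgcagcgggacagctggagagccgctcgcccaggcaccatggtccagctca

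Genes that make ribosomes were mostly higher in the TNF-α library too. Of 65 listed ribosome biogenesis genes 64 were found in the table, with a median of 0.17. Above 0 were 54 (84.4%, against 50.6% of all genes). More than 25% higher were 15 (23.4%), near the 24.5% of all genes. More than 20% lower were 0, against 23.4% of all genes. The highest was Fbl, the methyltransferase fibrillarin of the nucleolus, with 3628 counts in the control and 7750 in the TNF-α library (0.83, interval 0.78 to 0.89). The lowest was Rrn3, an initiation factor of RNA polymerase I, with 1808 and 1924 (-0.17, interval -0.26 to -0.08).

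Other genes with TOP messages were mixed. Of 14 such genes 9 were above 0 (64.3%, against 50.6% of all genes) and the median was 0.06. They ran from the elongation factor Eef2 with 105323 and 104940 counts (-0.27) to the histone chaperone Nap1l1 with 18533 and 28003 (0.34). Among 16 genes of translation initiation and its control, 6 were above 0 (37.5%, against 50.6% of all genes) and the median was -0.10. The ends of this list were the MYC family genes Mycn, with 365 and 229 counts (-0.93, interval -1.18 to -0.69), and Myc, with 582 and 1039 (0.57, interval 0.43 to 0.73).

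Genes around the mitochondrial ribosome lay near or below the level of all genes. The median of 13 translation factors was 0.01, from Tufm, the mitochondrial elongation factor Tu, with 3557 and 3737 counts (-0.19), to Mtfmt, which formylates the initiator methionine, with 258 and 408 (0.40). The median of 23 assembly factors was -0.08, from the rRNA methyltransferase Mrm1 with 248 and 198 counts (-0.58, interval -0.86 to -0.31) to Fastkd2 with 306 and 467 (0.35, interval 0.14 to 0.56). The median of 14 genes of mitochondrial DNA expression was 0.05, from the coactivator Ppargc1b with 570 and 544 counts (-0.33) to Tfam, which packages mitochondrial DNA, with 2015 and 2785 (0.21). The proteins of the mitochondrial ribosome, at a median of 0.12, thus sat above these lists, a difference with no test.

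Ribosomal proteins whose names the rule does not take in were looked at as well. Among cytosolic ones, the log2 ratio was 0.15 for Rpsa, 0.15 for Rack1 and 0.02 for Fau. The 5 mitochondrial ones were Chchd1 (473 and 869 counts, 0.62), Ptcd3 (0.21), Aurkaip1 (0.08), Dap3 (-0.06) and Gadd45gip1 (-0.19). Chchd1 lay above Mrpl34, the highest member of the mitochondrial set, but its interval of 0.45 to 0.78 overlaps that of Mrpl34.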

How the data were processed

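RNA from 1 control and 1 TNF-α treated culture was measured by RNA-seq, with libraries from a SMARTER mRNA kit per the labels. The authors deposited whole-number read counts per gene, not normalized, with coordinates and exon lengths. The submitters' processing notes name GRCm38 and mm10; the aligner, the counter and its strand setting were not given in the sources used here. No column of sample values was left unused (0), and no authors' comparison was in the table.

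A gene was compared where its 2 counts added up to 10 or more. Counts were scaled by TMM in edgeR 4.0.16 (R 4.3.3), giving a TNF-α to control factor of 1.197, and log2 ratios used a prior count of 2. With 1 library per condition a quasi-likelihood fit has no residual degrees of freedom and was not made. Exact Clopper-Pearson intervals (95%, scipy 1.17.1) cover counting error only, and they are too narrow where a molecule was counted more than once. In CPM, 10 counts equal 0.225 in the control and 0.187 in the TNF-α library. TPM was computed from the deposited exon lengths. Coding lengths and GC content came from GENCODE M21, in which 140 of the 169 members have the same coordinates, and promoters from RefSeq (GRCm38.p6). Exons overlapped another gene for 36 cytosolic and 31 mitochondrial members. The ratio script was tested on simulated data.

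The members and gene lists were chosen with earlier results of these data known. Named genes were the 5 highest and 5 lowest ratios and the 3 highest and 3 lowest TPM of each set among members with at least 200 counts, members past 2-fold or below the count filter, the paralogue pairs, both stalks, Rpl5, Rpl11, Rps6 and Rps19, and the ends of each other list; other names are said to be chosen after their values were seen. Of the listed genes, 1 is not reported here, Riok2 was not matched, Mrm3 was matched as Rnmtl1, and Mrp63 and Ict1 are members under the names Mrpl57 and Mrpl58. Alternatives were DESeq2 1.42.0 size factors, total counts and upper quartile scaling, other filters and prior counts, trends on length and GC (statsmodels 0.14.6), and member sets without overlaps, copies or Rpl23a.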

Additional observations from a re-analysis of the deposited data

How the results depend on the processing

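No paired analysis was possible because the control and the TNF-α group hold a single library each, which also leaves no replicate to drop. Medians kept their sign throughout, from 0.078 to 0.15 for the cytosolic and from 0.07 to 0.15 for the mitochondrial set. The lowest values of both sets came from a trend on coding length, added after seeing the data. It put the cytosolic median at 0.078, where the lowest was otherwise 0.11, and the mitochondrial median at 0.070. A trend on exon length and GC content put the mitochondrial median at 0.076, against 0.12 as reported. The trend on coding length left 11 cytosolic members more than 25% higher, 0 over 2-fold higher and 2 mitochondrial members more than 20% lower. Members without a coding length dropped out there, among them Rps3a3 and Rpl37rt, the only 2 over 2-fold higher. The fall from 20 members more than 25% higher is thus partly their absence. A trend on exon length and GC content left 1 cytosolic member over 2-fold higher and 2 mitochondrial ones more than 20% lower. Without members whose exons overlap another gene, fewer genes were counted: 13 cytosolic members were more than 25% higher, 43 cytosolic and 35 mitochondrial members were above 0. The 1 cytosolic member more than 20% lower, Rpl3l, was lost (0) with a minimum of 1 CPM, without paralogues, with standard members only, and with at least 200 counts, the last 2 added after seeing the data; with standard members only, 0 were over 2-fold higher. The log2 ratio of the cytosolic sums was 0.120 with total counts, 0.123 with DESeq2 size factors, 0.118 with upper quartile scaling and 0.103 without Rpl23a, also added later, which took the change of the cytosolic to mitochondrial ratio from 0.048 to 0.025. No value reversed. Ratios of named genes were recomputed with the 3 other scalings only, and 162 of 162 stayed within their counting intervals. These scalings shift all genes by nearly the same small amount, so this outcome was given by the method. The other alternatives were not computed for single named genes. By the intervals from the counts as deposited, counting error was small for most cytosolic genes. Mitochondrial genes with low counts had intervals too wide to rank them.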

Other observations

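The mitochondrial genome, whose messages the mitochondrial ribosome translates, gave a mixed picture. Its 13 protein genes summed to 494768 counts in the control and 619678 in the TNF-α library, a log2 ratio of 0.06 (0.060 to 0.070). Of the 11 that passed the count filter 6 (54.5%) were above 0, against 50.6% of all genes. mt-Nd2 had 34920 and 54091 counts (0.37) and mt-Cytb had 81110 and 118893 (0.29), while mt-Nd1 had 75890 and 83803 (-0.12) and mt-Co1 had 121578 and 145021 (-0.01). Counts were very uneven over this genome: mt-Co2 was listed at 0 and 6 counts and mt-Atp6 at 12 and 14 beside the values above. The ribosomal RNAs of the mitochondrial ribosome were mt-Rnr1 with 1793 and 2176 counts (0.02, interval -0.07 to 0.11) and mt-Rnr2 with 3535 and 4704 (0.15, interval 0.09 to 0.22). The 22 transfer RNA genes summed to 13202 and 12126 counts, a log2 ratio of -0.38. Most of these counts were those of mt-Ty (8782 and 8192). Of the 18 transfer RNA genes that passed the filter, the interval lay wholly above 0 for 5 and wholly below for 8. All genes named in this paragraph other than the ribosomal RNAs were chosen after their values were seen.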
